A study of Mus musculus with 9 samples.

Results

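Nuclear hormone receptors are transcription factors that a small lipophilic molecule can switch, and 39 mouse genes of this superfamily outside the retinoic acid receptor and Nr4a families were listed by gene symbol. Of these, 37 had at least 1 probe set that the platform annotation assigned to a single symbol, out of 18193 such genes on the array. Nr1h2 and Nr2e3 were not analysed here. The 37 receptor genes had 98 probe sets, with several for 24 genes and 1 for the other 13.

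Most of the receptors share a DNA-binding domain with zinc fingers and a pocket for a ligand. The ligand may be a steroid, thyroid hormone, vitamin D, a fatty acid, an oxysterol or heme. For several of them, called orphan receptors, no physiological ligand is settled. Some steroid receptors wait in the cytoplasm on chaperones, and steroid receptors bind DNA as homodimers. Many other receptors of the family sit on DNA as partners of a retinoid X receptor and exchange corepressors for coactivators when ligand binds. In the developing nervous system the family is known for roles in the patterning, survival and timing of differentiation of neural progenitors.

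The receptors were described on 9 Affymetrix mouse arrays of passage 3 neurospheres, which are floating cultures enriched in stem and progenitor cells, from C57BL/6J mouse embryos of embryonic day 12.5. BMP NCSC were neurospheres from dorsal root ganglia (DRG), the sensory ganglia that arise from the neural crest, grown with 10 ng/ml of the bone morphogenetic protein BMP4. rNCSC were DRG neurospheres grown without BMP4, and SCSC were spinal cord neurospheres grown without BMP4. Each group had 3 arrays, and every culture was in serum-free medium with 20 ng/ml bFGF, 20 ng/ml EGF, heparin, N2 and B27. As background, N2 supplies progesterone, and B27 supplies corticosterone, triiodothyronine and a retinol ester, so hormones that receptors of this family bind were part of the medium of all 3 groups. BMP NCSC and rNCSC differed in BMP4, whereas BMP NCSC and SCSC differed in both tissue of origin and BMP4, and the comparisons of BMP NCSC with rNCSC and with SCSC share the BMP NCSC arrays. The labels name replicates but not whether they came from separate cultures or embryos, so the p-values measure the spread among these arrays, which may be technical.

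Values are log2 expression, and a difference of 1 is a doubling. A gene was tested where its brightest probe set reached 5 on at least 3 arrays, and was called changed at an adjusted p under 0.05 with a difference of at least 1 in size. Array medians lay between 3.99 and 4.03, and between 38.7% and 39.9% of probe sets reached 5. Mean levels of 8 markers of central nervous system progenitors were 2.50 to 2.66 on the BMP NCSC arrays, 10.8 to 11.0 on the rNCSC arrays and 11.0 to 11.3 on the SCSC arrays. For 5 markers of neural crest and peripheral glia, the means were 10.2 to 10.4 in BMP NCSC, 3.42 to 3.80 in rNCSC and 3.35 to 3.50 in SCSC. Thus rNCSC, although from DRG, carried the progenitor markers of the spinal cord spheres. The 7 cartilage and mesenchyme markers averaged 12.2 to 12.9 in BMP NCSC, 3.35 to 3.68 in rNCSC and 3.44 to 3.58 in SCSC, and 5 cell cycle genes averaged 5.27 to 6.20, 11.4 to 11.5 and 11.5 to 11.6 in the same order of groups. No marker of endothelial cells, microglia, erythroid cells or skeletal muscle reached 5 on all 3 arrays of any group. The 4 smooth muscle markers averaged 5.94 to 7.28 in BMP NCSC, 3.78 to 3.88 in rNCSC and 3.72 to 3.86 in SCSC. Acta2 and Tagln were tested and called higher in BMP NCSC, Tagln having passed the filter through the BMP NCSC arrays alone. Myh11 and Cnn1 stayed under the filter and did not share the rise. They averaged 3.39 and 2.91 in BMP NCSC, 3.57 and 2.85 in rNCSC, and 3.61 and 2.88 in SCSC. The 6 astrocyte markers averaged 5.59 to 6.40 in BMP NCSC, 6.87 to 7.75 in rNCSC and 6.61 to 6.98 in SCSC, with 1 of 4 tested called higher and 3 lower in BMP NCSC in each comparison. Of the melanocyte markers, Mitf was tested and was higher, averaging 9.94 in BMP NCSC, 6.51 in rNCSC and 5.52 in SCSC. Dct, Tyr, Pmel and Tyrp1 stayed under the filter. They averaged 3.56, 2.94, 3.96 and 3.42 in BMP NCSC and 2.87, 2.96, 3.89 and 2.99 in rNCSC. The 7 neuron markers averaged 4.88 to 5.73 in BMP NCSC, 5.23 to 5.90 in rNCSC and 5.64 to 5.84 in SCSC. Of 4 neuron markers tested, 1 was called higher and 1 lower against rNCSC, and 0 higher and 3 lower against SCSC. The 4 adipocyte markers averaged 3.15 to 6.60 in BMP NCSC and 2.56 to 2.71 in rNCSC, with 0 tested. The receptor values of BMP NCSC move with several of these marker lists, and the part of cell makeup and proliferation in them was not tested. In RNA from whole spheres, fewer cells of a type and less RNA per cell cannot be told apart.

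Of the 37 receptor genes, 17 were tested and 20 stayed under the filter. Between BMP NCSC and rNCSC, 8 of the 17 were higher in BMP NCSC, 3 were lower and 6 were not called, so 64.7% were called against 43.9% of all 10319 genes tested. The background split into 22.6% higher and 21.3% lower. The same 11 receptors were called, in the same directions, between BMP NCSC and SCSC, where 46.9% of all genes were called, 22.9% higher and 24% lower. Those that rose in BMP NCSC were Nr1d2, Nr2c1, Nr2f2, Nr3c1, Nr3c2, Rora, Rxra and Vdr, and those that fell were Nr2f1, Rorb and Esrrb. Nr3c2 and Vdr entered the test through the BMP NCSC arrays alone, and Rorb and Esrrb had no BMP NCSC array at 5, so for these 4 the filter and the difference are not independent.

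The median difference over the 17 receptors was 0.23 for BMP NCSC minus rNCSC, against -0.07 for all genes, and 0.38 for BMP NCSC minus SCSC, against -0.10. Median sizes regardless of sign were 1.36 for the receptors against 0.86 for all genes, and 1.91 against 0.93. All 3 arrays of BMP NCSC lay to 1 side of all 3 arrays of rNCSC for 12 of the 17 receptors (70.6%), against 79.6% of all genes, and to 1 side of the SCSC arrays for 14 receptors (82.4%), against 83.6%. With no limit on size, 12 receptors passed the adjusted p against rNCSC, where 77.9% of all genes did, and 13 against SCSC, where 79.7% did. These shares lie near or under those of the whole array.

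Between rNCSC and SCSC, 0 of the 17 receptors were called, against 0.00969% of all genes (1 of 10319). At an unadjusted p under 0.05, 4 receptors (Nr1d2, Rxra, Rxrb and Esrrb) differed in limma's test, against 13.7% of all genes. For 6 receptors (35.3%) the rNCSC arrays lay wholly to 1 side of the SCSC arrays, against 20.7% of all genes, and the median size of the difference was 0.26, against 0.14. The smallest adjusted p among the receptors was 0.163, for Esrrb.

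**Figure D1:**
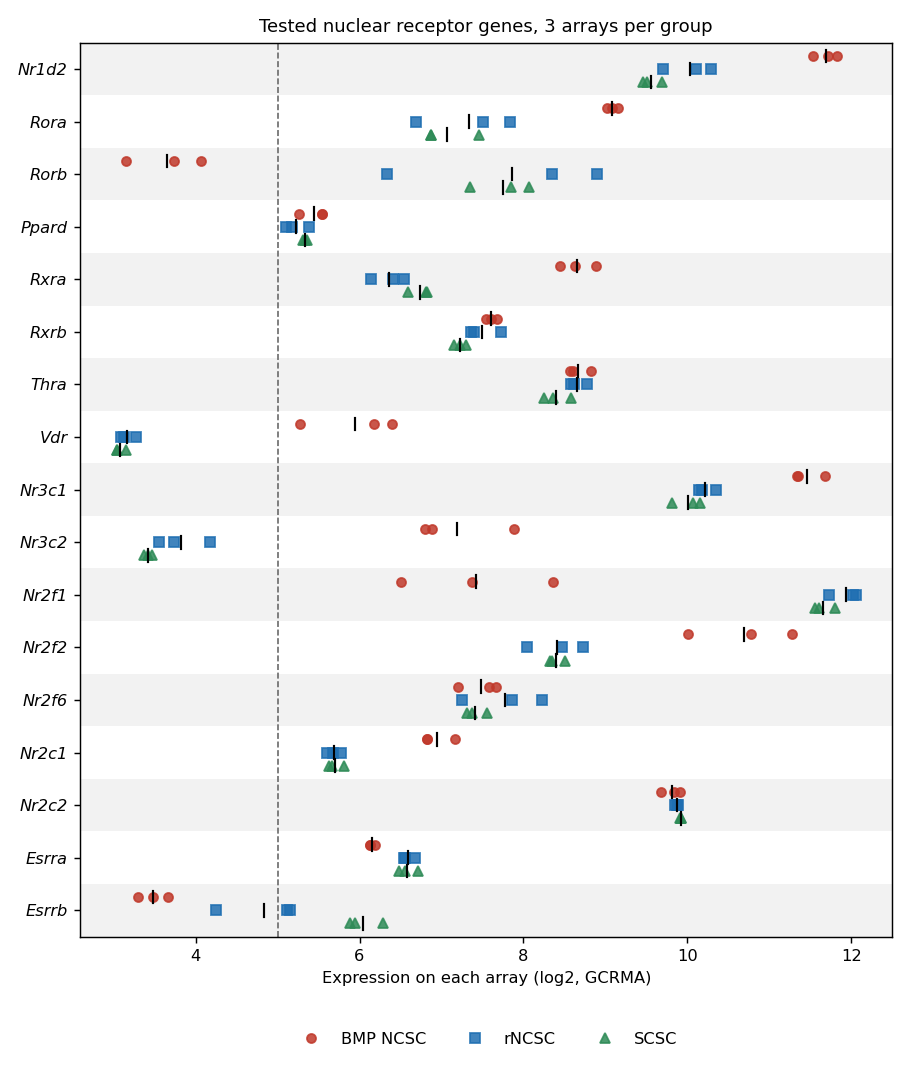
Log2 expression of the 17 tested receptor genes on each of the 9 arrays (horizontal axis), with 1 row per gene and 3 arrays for each of BMP NCSC, rNCSC and SCSC; black bars are group means and the dashed line is the filter level of 5. BMP NCSC arrays stand to the right of the others for Nr3c2, Vdr, Rxra and Nr2f2 and to the left for Nr2f1, Rorb and Esrrb, while rNCSC and SCSC arrays lie close together for most genes.

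**Figure D2:**
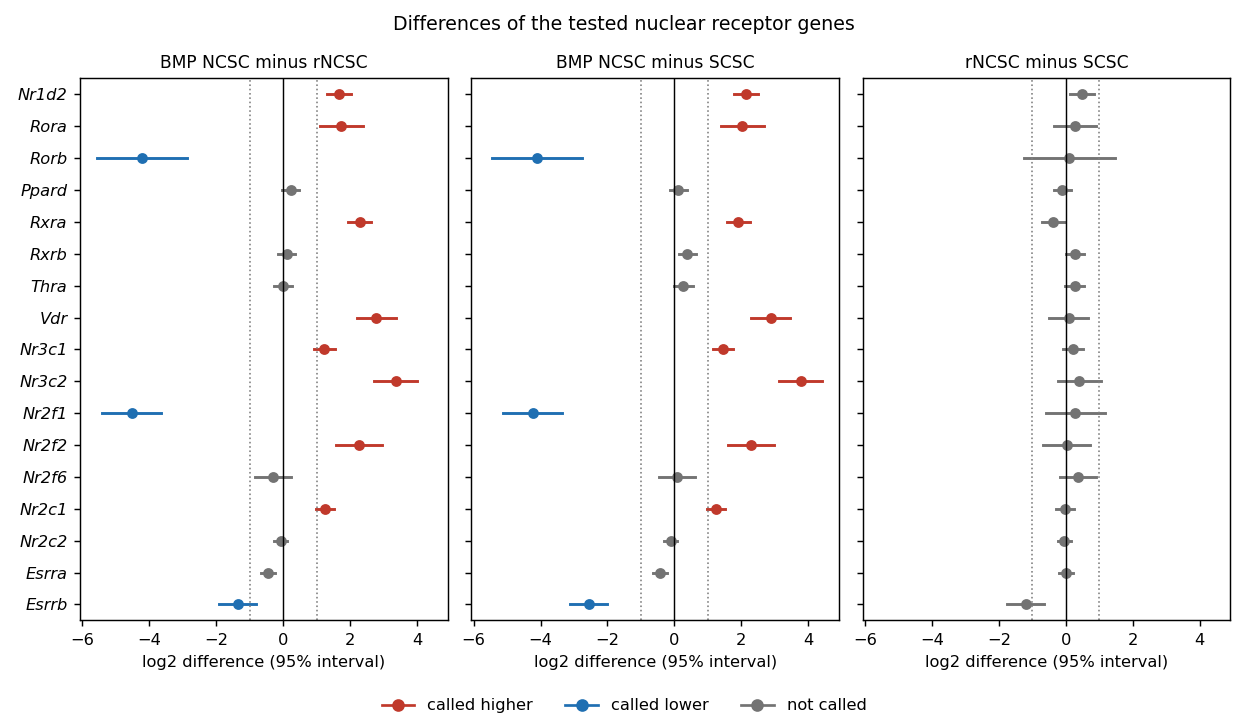
Difference in log2 expression of each tested receptor gene for BMP NCSC minus rNCSC, BMP NCSC minus SCSC and rNCSC minus SCSC, with 95% confidence intervals from the limma fit over 9 arrays. Nr2f1 (-4.52 against rNCSC) and Nr3c2 (3.37 against rNCSC) mark the ends of the range for BMP NCSC minus rNCSC, and the intervals of Thra, Nr2c2, Nr2f6, Rxrb and Ppard include 0 in that comparison.

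Receptors tied to the circadian clock moved in both directions. Rev-erb beta (Nr1d2) is a heme-binding repressor that acts with Nr1d1 on the clock gene Arntl. It measured 11.71, 11.83 and 11.53 in BMP NCSC, 10.10, 9.70 and 10.29 in rNCSC, and 9.69, 9.46 and 9.51 in SCSC. All BMP NCSC arrays lay above all others, with a difference of 1.66 from rNCSC (95% interval 1.30 to 2.02, adjusted p = 1.55e-05, 3.16-fold) and of 2.14 from SCSC (adjusted p = 2.92e-06). With its probe sets averaged, the difference from SCSC was 1.36. Its rNCSC arrays also lay above its SCSC arrays, by 0.48, with an adjusted p of 0.253.

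Rora, an activator that competes with the Rev-erbs for the same DNA elements, measured 9.15, 9.08 and 9.02 in BMP NCSC, 7.83, 7.50 and 6.69 in rNCSC, and 6.88, 7.46 and 6.87 in SCSC. The BMP NCSC arrays were tightly grouped and above the other 6, which overlapped one another. Rora was higher by 1.74 than in rNCSC (1.10 to 2.39, adjusted p = 0.000434) and by 2.02 than in SCSC (adjusted p = 0.000163), and 4 additional probe sets were also called higher against rNCSC, by 1.74 to 2.34. With all probe sets of the gene averaged, those under the filter included, the differences were 1.11 and 1.19. Its relative Rorb, known from retina and cortex, ran the other way.

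Rorb measured 4.06, 3.73 and 3.15 in BMP NCSC, 8.89, 8.35 and 6.34 in rNCSC, and 7.84, 8.07 and 7.35 in SCSC. No BMP NCSC array reached 5, and the third of the rNCSC arrays was well below the other two. The differences were -4.21 from rNCSC (-5.56 to -2.86, adjusted p = 0.000185) and -4.11 from SCSC (adjusted p = 0.000205), and the 2 additional tested probe sets differed from rNCSC by -1.85 and -3.78. Without the third rNCSC array the difference from rNCSC was -4.97, and with its probe sets averaged it was -3.28 from rNCSC and -3.36 from SCSC.

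The AGGTCA core that many receptors of the family bind was searched on both strands of the 250 bases upstream of RefSeq transcription starts (GRCm38.p6), which were available for 34 of the receptor genes in 51 windows. It occurred in 10 of the 51 windows (19.6%), and in 14.0% of the 32851 windows of all genes. Of the receptors called higher in BMP NCSC than in rNCSC, it was in 2 of 8 windows (25.0%), those of Nr1d2 and Rxra. It was in 0 of 6 windows of the receptors called lower, in 0 of 6 of those not called and in 8 of 31 (25.8%) of those not tested, and Nr3c1 and Thra had no window here. These 2 windows are shown because they are the ones of called receptors that hold the core. The capitals mark the core or its reverse complement, a match of letters and not a measured binding site. The motifs CACGTG and GGCGCC were searched too, and neither was in a window of a called receptor. CACGTG was in 4 of the 51 windows (7.8%), against 6.0% of all windows. GGCGCC was in 9 windows of 7 genes (17.6% of windows), against 9.6%, including 4 of 6 windows of receptors not called, from 3 genes. The windows of Nr1h3 overlap, and the same GGCGCC was counted in each.
Nr1d2, chr14:18239107-18239356, minus strand: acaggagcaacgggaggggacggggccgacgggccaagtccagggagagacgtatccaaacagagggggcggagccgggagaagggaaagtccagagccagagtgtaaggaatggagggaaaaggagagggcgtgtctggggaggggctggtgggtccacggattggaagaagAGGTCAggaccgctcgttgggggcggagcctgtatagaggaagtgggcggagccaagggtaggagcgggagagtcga
Rxra, chr2:27709042-27709291, plus strand: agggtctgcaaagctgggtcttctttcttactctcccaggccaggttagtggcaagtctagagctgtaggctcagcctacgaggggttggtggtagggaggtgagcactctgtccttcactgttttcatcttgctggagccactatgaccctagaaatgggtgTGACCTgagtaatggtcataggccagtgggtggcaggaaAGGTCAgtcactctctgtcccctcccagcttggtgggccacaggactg

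Of 5 steroid receptors, 2 were tested and both were called higher in BMP NCSC, one of them, Nr3c2, having passed the filter through the BMP NCSC arrays alone. Nr3c1 encodes the glucocorticoid receptor. Its values were 11.35, 11.34 and 11.69 in BMP NCSC, 10.35, 10.14 and 10.18 in rNCSC, and 9.82, 10.07 and 10.15 in SCSC. The groups with BMP4 and without did not overlap, and Nr3c1 was higher by 1.24 than in rNCSC (0.93 to 1.54, adjusted p = 3.27e-05, 2.36-fold) and by 1.45 than in SCSC (adjusted p = 1.1e-05). When the probe sets of each gene were averaged, its difference from rNCSC was 0.98, just under the size limit.

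Nr3c2 encodes the mineralocorticoid receptor, which binds corticosterone as well as aldosterone. It measured 6.80, 7.89 and 6.89 in BMP NCSC, 3.74, 3.55 and 4.17 in rNCSC, and 3.42, 3.37 and 3.47 in SCSC. The 6 arrays without BMP4 were at the low end of the scale, where GCRMA values say little about amount, so the size of the difference is less certain than its sign. It was 3.37 from rNCSC (2.72 to 4.01, adjusted p = 6.94e-06) and 3.77 from SCSC (adjusted p = 3.16e-06). The sex steroid receptors stayed under the filter, with the estrogen receptors Esr1 at 3.74 to 4.09 and Esr2 at 3.04 to 3.28 over the 9 arrays. The progesterone receptor gene Pgr was at 3.51, 4.28 and 4.03 in BMP NCSC, against 3.20, 3.09 and 3.03 in rNCSC and 2.94, 2.87 and 3.18 in SCSC.

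Among the retinoid X receptors, the shared partners of many other receptors, Rxra rose and Rxrb was not called. Rxra measured 8.63, 8.45 and 8.88 in BMP NCSC, 6.55, 6.40 and 6.14 in rNCSC, and 6.82, 6.59 and 6.82 in SCSC. Every BMP NCSC array was above every other array, and the rNCSC arrays were below the SCSC arrays. The difference was 2.29 from rNCSC (1.95 to 2.63, adjusted p = 1.36e-06, 4.89-fold) and 1.91 from SCSC (adjusted p = 3.92e-06). With the probe sets averaged these were 0.90 and 0.75, both under the size limit. Rxrb measured 7.68, 7.54 and 7.60 in BMP NCSC, 7.39, 7.36 and 7.73 in rNCSC, and 7.29, 7.23 and 7.15 in SCSC. Its BMP NCSC and rNCSC arrays overlapped, with a difference of 0.11 (-0.15 to 0.37, adjusted p = 0.388). Against SCSC it was 0.38 (adjusted p = 0.013), under the size limit.

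The vitamin D receptor gene Vdr was at 5.27, 6.17 and 6.40 in BMP NCSC, 3.12, 3.09 and 3.27 in rNCSC, and 3.04, 3.04 and 3.15 in SCSC. All 6 arrays without BMP4 were near the lower end of the scale. Vdr was higher by 2.78 than in rNCSC (2.21 to 3.36, adjusted p = 1.14e-05) and by 2.87 than in SCSC (adjusted p = 8.53e-06), and its additional tested probe set was higher by 2.74 and 2.93. Of 9 genes listed for vitamin D handling, 6 were on the array and 0 passed the filter. The classical Vdr target Cyp24a1, which degrades the hormone, stayed at 3.68, 3.39 and 3.55 in BMP NCSC, 3.53, 3.55 and 3.64 in rNCSC, and 3.56, 3.58 and 3.88 in SCSC, with overlapping groups.

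Thra, the thyroid hormone receptor that is widespread in the nervous system, measured 8.57, 8.60 and 8.83 in BMP NCSC, 8.62, 8.58 and 8.78 in rNCSC, and 8.25, 8.58 and 8.36 in SCSC. The BMP NCSC and rNCSC arrays interleaved, and the difference of 0.01 had an interval of -0.27 to 0.28 (adjusted p = 0.955), which leaves no room for a change of the size limit in this probe set. Another Thra probe set behaved differently, at 8.15, 7.92 and 8.17 in BMP NCSC, 7.15, 6.92 and 7.01 in rNCSC, and 7.01, 7.06 and 6.73 in SCSC. That probe set was called higher by 1.05 against rNCSC and by 1.15 against SCSC (adjusted p = 6.17e-05 and 3.33e-05, over 17651 probe sets). Thra yields several transcripts, and which of them each probe set reads was not tested. Thrb stayed between 2.75 and 3.41.

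The COUP transcription factors moved in opposite directions. Nr2f1 (COUP-TFI) is an orphan receptor that patterns the neural tube and cortex and steers progenitors toward glia. It measured 6.51, 7.38 and 8.37 in BMP NCSC, 12.05, 11.73 and 12.02 in rNCSC, and 11.55, 11.61 and 11.80 in SCSC. The BMP NCSC arrays were spread out but stayed well below the rest, and the difference was -4.52 from rNCSC (-5.40 to -3.63, adjusted p = 8.01e-06, 22.9-fold) and -4.24 from SCSC (adjusted p = 1.09e-05).

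Nr2f2 (COUP-TFII), known for venous, mesenchymal and heart development, measured 10.78, 11.28 and 10.00 in BMP NCSC, 8.05, 8.73 and 8.47 in rNCSC, and 8.34, 8.51 and 8.33 in SCSC. Its lowest BMP NCSC array, the third, was the one with the highest Nr2f1, and it still lay above every array without BMP4. Nr2f2 was higher by 2.27 than in rNCSC (1.58 to 2.97, adjusted p = 0.000131) and by 2.30 than in SCSC (adjusted p = 0.000116), and 3 additional probe sets were higher than in rNCSC by 2.57 to 2.94. Nr2f6, another relative, measured 7.58, 7.20 and 7.66 in BMP NCSC, 7.86, 7.26 and 8.23 in rNCSC, and 7.37, 7.31 and 7.56 in SCSC. Its groups overlapped in every comparison (BMP NCSC minus rNCSC -0.30, -0.83 to 0.24, adjusted p = 0.27).

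Upstream windows of Nr2f1 and Nr2f2 are shown because these relatives moved in opposite directions. Nr2f1 had 2 windows, of which the more upstream is shown, and Nr2f2 had 1. None of the 3 holds AGGTCA on either strand, so there are no capitals. G and C made up 72.0% of the Nr2f1 window shown, 39.6% of its other window and 50.0% of the Nr2f2 window.
Nr2f1, chr13:78198874-78199123, minus strand: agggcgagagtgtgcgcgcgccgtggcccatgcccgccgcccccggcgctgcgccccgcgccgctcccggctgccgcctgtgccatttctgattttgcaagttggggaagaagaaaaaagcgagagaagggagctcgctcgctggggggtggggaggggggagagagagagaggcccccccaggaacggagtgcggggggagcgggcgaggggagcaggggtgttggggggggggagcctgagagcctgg
Nr2f2, chr7:70366747-70366996, minus strand: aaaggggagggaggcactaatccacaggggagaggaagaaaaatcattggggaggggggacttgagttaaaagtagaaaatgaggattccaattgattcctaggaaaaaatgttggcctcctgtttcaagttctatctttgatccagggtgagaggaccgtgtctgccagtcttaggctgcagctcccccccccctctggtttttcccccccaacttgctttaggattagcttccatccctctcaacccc

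Of the testicular receptors, orphan receptors that repress through AGGTCA repeats, Nr2c1 rose and Nr2c2 was not called. Nr2c1 measured 6.83, 7.17 and 6.83 in BMP NCSC, 5.77, 5.68 and 5.61 in rNCSC, and 5.63, 5.81 and 5.67 in SCSC. The arrays with and without BMP4 did not overlap, with a difference of 1.26 from rNCSC (0.99 to 1.52, adjusted p = 1.27e-05) and of 1.24 from SCSC (adjusted p = 1.29e-05). Nr2c2 measured 9.84, 9.68 and 9.91 in BMP NCSC, 9.85, 9.88 and 9.89 in rNCSC, and 9.92, 9.91 and 9.92 in SCSC. Its difference from rNCSC was -0.06 (-0.26 to 0.13, adjusted p = 0.502). One of its 3 additional tested probe sets was called lower than in rNCSC (difference -1.03, adjusted p = 0.0473), and the other two were not called. Nr6a1, the germ cell nuclear factor, stayed under the filter at 4.60 to 4.73 in BMP NCSC, against 4.16 to 4.30 in rNCSC and 4.33 to 4.45 in SCSC.

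The estrogen-related receptors, orphan receptors that drive mitochondrial and energy genes with the coactivators Ppargc1a and Ppargc1b, were at or below the level of the other groups in BMP NCSC. Esrra measured 6.13, 6.13 and 6.19 in BMP NCSC, 6.56, 6.55 and 6.67 in rNCSC, and 6.72, 6.48 and 6.55 in SCSC. All BMP NCSC arrays were below the others, but the differences of -0.44 and -0.43 (adjusted p = 0.00177 and 0.00192) were under the size limit. An additional Esrra probe set passed it, at 4.23, 4.56 and 4.73 in BMP NCSC, 5.84, 5.74 and 5.95 in rNCSC, and 5.67, 5.39 and 5.52 in SCSC (differences -1.33 and -1.02, adjusted p = 3.22e-05 and 0.000167).

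Esrrb, known from pluripotent cells, the inner ear and the retina, measured 3.66, 3.29 and 3.48 in BMP NCSC, 5.15, 5.11 and 4.25 in rNCSC, and 6.29, 5.89 and 5.94 in SCSC. The groups did not overlap in any comparison, with BMP NCSC lowest and SCSC highest. Its difference from rNCSC was -1.36 (-1.92 to -0.80, adjusted p = 0.000857), and from SCSC it was -2.56 (adjusted p = 1.44e-05). For rNCSC minus SCSC it was -1.20 (-1.76 to -0.65), with an adjusted p of 0.163, and over the alternatives the adjusted p ran from 0.0674 to 0.568. Esrrg stayed between 2.88 and 3.65.

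**Figure D3:**
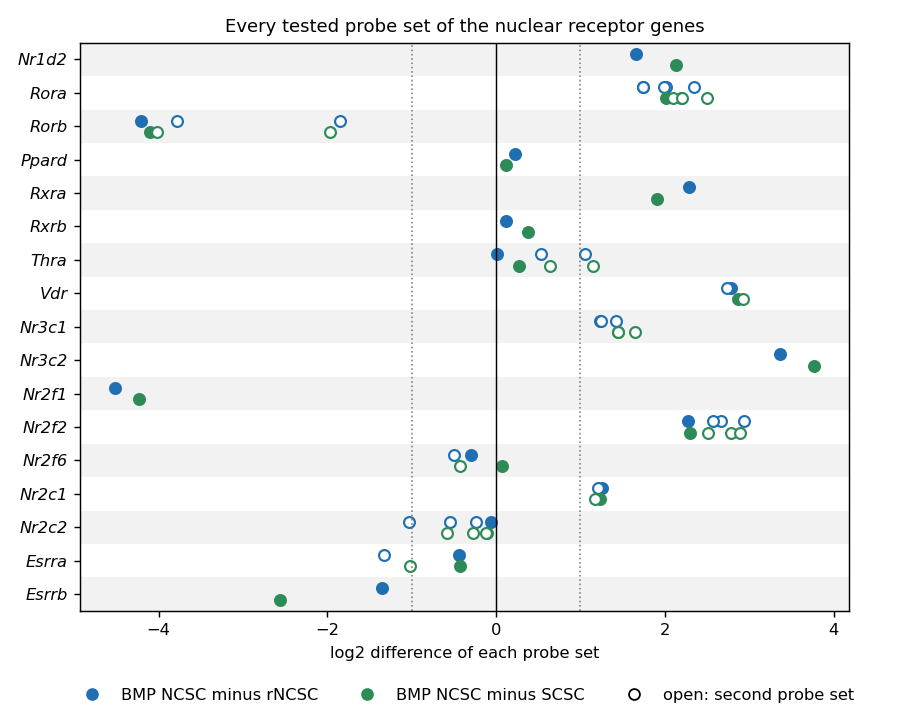
Difference in log2 expression for every tested probe set of the receptor genes, BMP NCSC minus rNCSC and BMP NCSC minus SCSC, with 1 row per gene and 1 point per probe set; filled points are the brightest probe set, open points the additional ones, and dotted lines the size limit. Probe sets of Rora, Nr2f2, Nr3c1 and Vdr lie together on the positive side and those of Rorb on the negative side, while those of Thra, Esrra and Nr2c2 spread across the size limit of 1.

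Of the 98 receptor probe sets, 37 passed the filter, and 20 were called higher and 7 lower in BMP NCSC than in rNCSC, where 21.1% of all 17651 probe sets tested were higher and 21.5% lower. Against SCSC, 20 were called higher and 6 lower, where 21.7% and 23.9% of all probe sets were. No receptor gene had tested probe sets called in opposite directions. A Rora probe set under the filter ran against the call, at 3.91 to 4.11 in BMP NCSC. It was at 4.41 to 4.77 in rNCSC and 4.998 to 5.09 in SCSC. An Nr2c1 probe set under the filter did so too, at 3.77 to 3.87, against 4.17 to 4.64 in rNCSC and 4.07 to 4.39 in SCSC. The other probe sets of these genes under the filter overlapped between groups or were higher in BMP NCSC. Thra, Esrra and Nr2c2 were the 3 genes whose brightest probe set was not called while another was.

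Among the fatty acid sensors, Ppard passed the filter. This receptor, which drives fatty acid oxidation in many tissues, measured 5.26, 5.54 and 5.54 in BMP NCSC, 5.10, 5.18 and 5.38 in rNCSC, and 5.36, 5.30 and 5.33 in SCSC. The groups overlapped, with a difference of 0.23 from rNCSC (-0.03 to 0.48, adjusted p = 0.0915) and of 0.11 from SCSC (adjusted p = 0.364). Ppara, its counterpart in liver and brown fat, was at 4.54, 4.74 and 4.46 in BMP NCSC, 4.33, 3.88 and 4.22 in rNCSC, and 4.05, 3.84 and 3.84 in SCSC.

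Pparg, the receptor that directs fat cell differentiation, was under the filter at 4.01, 4.59 and 4.89 in BMP NCSC, 3.19, 3.01 and 3.09 in rNCSC, and 3.07, 3.03 and 3.20 in SCSC. The BMP NCSC arrays lay above the others and were well spread. The fat cell genes Fabp4 and Adipoq, picked after their values were seen, were spread far more widely over the same 3 arrays. The fat cell markers Lep and Cidec stayed low, at 2.47 to 2.62 and 2.84 to 3.37 in BMP NCSC. In rNCSC they were at 2.55 to 2.57 and 2.68 to 3.15. Fabp4, a lipid-binding protein of fat cells, was at 4.30, 7.39 and 11.81 in BMP NCSC, against 2.37 to 2.49 in rNCSC and 2.30 to 2.55 in SCSC. Adipoq, which encodes the fat cell hormone adiponectin, was at 2.95, 4.43 and 8.61 in BMP NCSC, against 2.64 to 2.70 in rNCSC and 2.56 to 3.05 in SCSC. The third BMP NCSC array thus had the highest Pparg, Fabp4 and Adipoq values, together with the highest Nr2f1 and the lowest Nr2f2 of its group.

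The clock repressor Nr1d1 fell just short of the filter, at 4.93, 4.91 and 4.74 in BMP NCSC, 3.49, 3.42 and 3.35 in rNCSC, and 3.53, 3.33 and 3.49 in SCSC. With no filter on low values, Nr1d1 was called higher in BMP NCSC by 1.44 against rNCSC and by 1.41 against SCSC (limma, adjusted p = 1.25e-06 and 1.33e-06), and Pparg by 1.40 against each (adjusted p = 0.000229 and 0.00022). Nr5a2, a regulator of cholesterol and bile acid genes and of pluripotency, was at 3.11, 3.27 and 3.13 in BMP NCSC, 3.52, 4.67 and 3.30 in rNCSC, and 4.22, 4.50 and 3.90 in SCSC. Without the filter it was called lower in BMP NCSC than in SCSC (-1.04, adjusted p = 0.0216). Without the filter all 37 receptors were tested, and 10 were called higher and 3 lower against rNCSC, where 14.4% of all 18193 genes were higher and 12.6% lower. Against SCSC, 10 were higher and 4 lower, where 14.5% and 14.2% of all genes were. Nr1d1, Pparg and Nr5a2 were singled out after their values were seen.

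The 20 receptors under the filter lay between 2.30 and 4.93 on every array, and 12 of them never reached 4. The oxysterol, bile acid and xenobiotic sensors of liver and gut were in this range throughout, with Nr1h3 at 3.25 to 3.79, Nr1h4 at 2.89 to 3.19, Nr1i2 at 3.27 to 3.78 and Nr1i3 at 2.75 to 2.96. So were Hnf4a, a liver and gut factor, at 3.32 to 3.62, the steroidogenic factor Nr5a1 at 3.04 to 3.42, and Nr0b2, a corepressor without a DNA-binding domain, at 3.34 to 3.53. Nr2e1, known from forebrain neural stem cells, was at 2.30 to 2.63 in all 3 groups, spinal cord spheres included. Rxrg ranged up to 4.17 in BMP NCSC, and Nr0b1 was at 2.47 to 2.59 in BMP NCSC, 2.51 to 2.71 in rNCSC and 2.95 to 3.29 in SCSC. Values this low do not show whether a gene was silent.

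**Figure D4:**
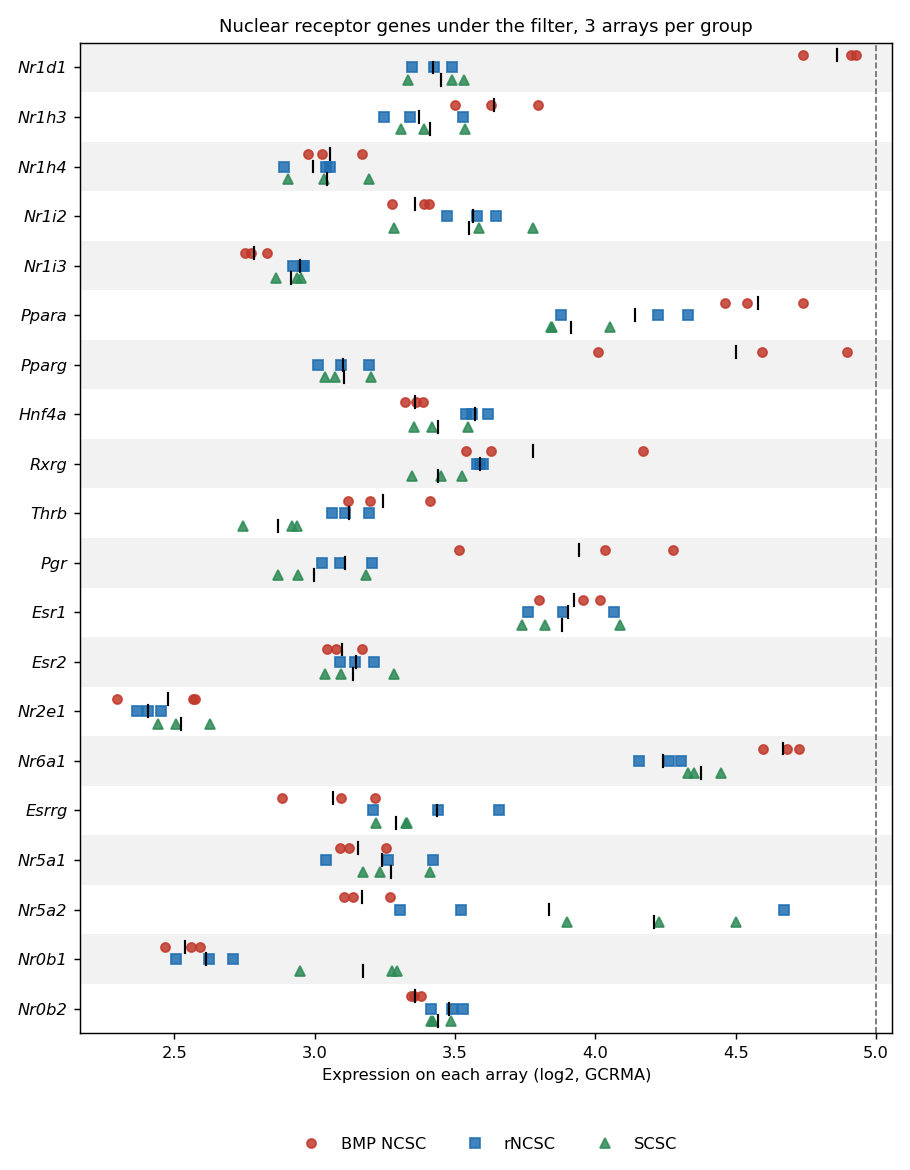
Log2 expression on each array of the 20 receptor genes that did not reach 5 on 3 arrays, with 1 row per gene and 3 arrays for each of BMP NCSC, rNCSC and SCSC; black bars are group means and the dashed line is the filter level of 5. In BMP NCSC, Nr1d1 (4.74 to 4.93), Nr6a1 (4.60 to 4.73), Ppara (4.46 to 4.74) and Pparg (4.01 to 4.89) approach the line. Most other genes stay under 4 in each group.

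The genes that receptors work with were described from lists chosen with earlier results of these data known. Their counts stand beside 22.6% higher and 21.3% lower over all genes against rNCSC, and 22.9% and 24% against SCSC. Of 34 coregulators, 31 were tested, and 4 rose and 4 fell in BMP NCSC against rNCSC (12.9% each), with a median of -0.06, close to that of all genes. Against SCSC, 4 rose and 5 fell, with a median of -0.21. The coactivator Ppargc1a, partner of the estrogen-related receptors and Ppars in mitochondrial biogenesis, was at 2.98, 3.58 and 2.95 in BMP NCSC, 10.17, 9.38 and 9.94 in rNCSC, and 9.20, 9.24 and 9.64 in SCSC. BMP NCSC arrays were near the bottom of the GCRMA range, and the differences were -6.66 from rNCSC (adjusted p = 4.75e-08) and -6.19 from SCSC (adjusted p = 6.93e-08). Its relative Ppargc1b averaged 3.75 in BMP NCSC, against 5.46 in SCSC (-1.70, adjusted p = 0.000197). The methyltransferase Prmt1 averaged 11.22 in BMP NCSC, against 12.27 in rNCSC (-1.06, adjusted p = 4.75e-06), with -1.17 against SCSC. Bcl11b, a corepressor that binds COUP transcription factors, was at 3.66 in BMP NCSC, against 5.41 in rNCSC (-1.75, adjusted p = 0.000473). Its paralogue Bcl11a, named here after its values were seen, was called the other way, at 8.22 in BMP NCSC, against 6.51 in rNCSC (1.71, adjusted p = 0.00258), and higher by 1.55 than in SCSC. The coactivator genes Ncoa2, Ncoa7 and Pnrc1 rose by 1.24, 1.58 and 1.03 against rNCSC and by 1.35, 1.57 and 1.58 against SCSC.

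Of 10 steroid receptor chaperones, 7 were tested. The immunophilin Fkbp5, a brake on the glucocorticoid receptor and itself a target of it, averaged 9.96 in BMP NCSC and 8.56 in rNCSC (1.39, adjusted p = 8.99e-07). In SCSC it averaged 9.04, and it was not called in that comparison. Fkbp5 also counts among the glucocorticoid targets below. Fkbp4, its counterpart that favours receptor activity, fell by 1.44 against rNCSC and by 1.65 against SCSC, and the adaptor Stip1 fell by 1.21 and 1.32. The chaperone list thus had 1 member higher and 2 lower against rNCSC (median -0.28), and 0 higher and 2 lower against SCSC (median -0.19).

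Of 16 glucocorticoid targets, 14 were tested, and 8 rose (57.1%) and 3 fell (21.4%) in BMP NCSC against rNCSC, with a median of 1.29. Against SCSC, 7 rose (50%) and 2 fell (14.3%), with a median of 1.02. Tsc22d3, which encodes the glucocorticoid-induced leucine zipper protein, was at 10.89, 10.33 and 10.51 in BMP NCSC, 7.92, 7.80 and 7.74 in rNCSC, and 7.74, 7.60 and 7.63 in SCSC. No BMP NCSC array came near the others (differences 2.76 and 2.92, adjusted p = 3.13e-07 and 2.08e-07). The transcription factor Cebpd was higher by 6.23 and 6.12 against rNCSC and SCSC. The siderophore-binding protein gene Lcn2 was at 12.58, 11.19 and 14.53 in BMP NCSC, against a mean of 3.86 ± 0.0568 in SCSC (SD, n = 3; difference 8.91, adjusted p = 3.42e-06 by limma). Without the third of the BMP NCSC arrays the Lcn2 difference was 8.02, and the SCSC level is at the low end of the scale. Other members ran the other way. Glul, the glutamine synthetase gene, fell by 1.65 against rNCSC and by 1.32 against SCSC, the metallothionein gene Mt1 fell by 2.83 (by 3.55 without the third of the rNCSC arrays) and 3.13, and the Krüppel-like factor gene Klf9 fell by 1.23 against rNCSC (adjusted p = 8.96e-05). Several of these genes also respond to other signals.

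Enzymes that make or activate ligands were few among the tested genes. Of 16 steroid and oxysterol enzymes, 6 were tested, with 1 higher and 0 lower in BMP NCSC against rNCSC (median 0.53) and 2 higher and 0 lower against SCSC (median 0.44). Hsd11b1, which regenerates active glucocorticoid from its inert form inside cells, was at 6.27, 6.49 and 8.11 in BMP NCSC, 3.70, 3.30 and 3.85 in rNCSC, and 3.38, 3.32 and 3.53 in SCSC. The groups did not overlap (differences 3.34 and 3.55, adjusted p = 9.75e-05 and 6.16e-05). Cyp46a1, the cholesterol hydroxylase of the brain, averaged 5.07 in BMP NCSC, against 4.05 in SCSC (1.03, adjusted p = 0.000105). Of 12 genes of thyroid hormone handling and response, 2 were tested. Dio2, the deiodinase that makes active thyroid hormone inside cells, was at 8.97, 8.73 and 8.02 in BMP NCSC, 3.29, 3.20 and 3.32 in rNCSC, and 3.02, 3.05 and 3.32 in SCSC, with differences of 5.30 and 5.44 (adjusted p = 9.22e-08 and 7.39e-08). Hsd11b1, Dio2 and Lcn2 without BMP4, and Ppargc1a, Ppargc1b and Bcl11b in BMP NCSC, averaged under 4, where the sizes of such differences are less certain than their signs. Hsd11b1, Dio2 and Lcn2 had no array at 5 without BMP4, and Ppargc1a, Ppargc1b and Bcl11b had none with it. For these genes, which the list counts include, the filter and the difference are not independent. Klf9, which also counts among the thyroid hormone genes, was the gene of that list that fell against rNCSC.

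Of 17 clock genes, 15 were tested, and 6 rose (40%) and 2 fell (13.3%) in BMP NCSC in each comparison (medians 0.63 against rNCSC and 0.78 against SCSC). Dbp, a clock output factor, was at 10.64, 10.23 and 10.08 in BMP NCSC, 6.59, 5.30 and 7.41 in rNCSC, and 5.03, 5.43 and 5.18 in SCSC, with differences of 3.88 and 5.10 (adjusted p = 5.55e-05 and 9e-06). Per3, of the repressing limb of the clock, was at 7.74, 7.83 and 7.34 in BMP NCSC, 5.09, 4.80 and 5.33 in rNCSC, and 4.50, 4.39 and 4.26 in SCSC, with differences of 2.56 and 3.26. Clock itself was higher by 1.39 and 1.74, while the kinase gene Csnk1e was lower, with -1.54 and -1.93. Hlf fell by 1.22 against rNCSC (adjusted p = 0.0135), and Cry1 by 1.04 against SCSC (adjusted p = 1.66e-05). Arntl, which the Rev-erbs repress and the Rors activate, was not called against rNCSC (7.77 in BMP NCSC, 7.46 in rNCSC). The labels used here do not give the hour of collection.

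Lipid target lists were mixed. Of 14 liver X receptor targets, 9 were tested, with 3 higher (33.3%) and 1 lower (11.1%) in BMP NCSC against rNCSC (median 0.54) and 4 higher (44.4%) and 1 lower (11.1%) against SCSC (median 1.28). The phospholipid transfer protein gene Pltp rose by 3.20 and 3.47, and Mylip, which degrades the LDL receptor, by 5.24 and 5.79. The lipogenic factor Srebf1 rose by 1.48 against rNCSC, and Smpdl3a fell by 1.81 against each. The cholesterol exporter Abca1 was at 8.39, 9.12 and 9.51 in BMP NCSC, 8.43, 7.55 and 9.43 in rNCSC, and 4.86, 6.81 and 5.95 in SCSC. It was called against SCSC (3.14, adjusted p = 0.00108) but overlapped between BMP NCSC and rNCSC (0.54, adjusted p = 0.423), and its rNCSC arrays also lay above its SCSC arrays (2.60, adjusted p = 0.189). Of 18 Ppar targets, 9 were tested, with 1 higher and 2 lower against rNCSC and 2 higher and 2 lower against SCSC (medians 0.00 and 0.02). The lipid droplet gene Plin2 rose by 2.38 and 2.18 and the peroxisomal enzyme gene Ech1 by 1.15 against SCSC. The fatty acid oxidation genes Acadl and Hadha fell by 1.58 and 1.29 against rNCSC and by 1.65 and 1.19 against SCSC. In none of the 10 lists was a gene called between rNCSC and SCSC.

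**Figure D5:**
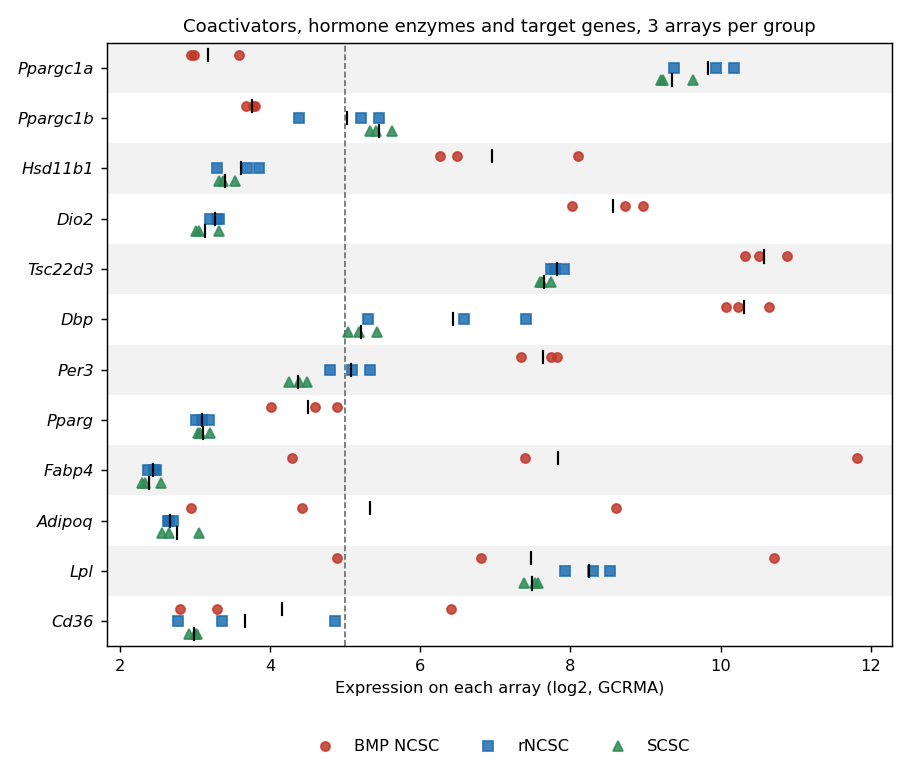
Log2 expression on each array of 12 chosen genes, with 3 arrays for each of BMP NCSC, rNCSC and SCSC. Pparg is itself a receptor gene, and the others work with or respond to the receptors. Black bars are group means and the dashed line is the filter level of 5. Ppargc1a is lower in BMP NCSC and Hsd11b1, Dio2, Tsc22d3, Dbp and Per3 are higher, while Fabp4, Adipoq, Lpl and Cd36 are widely spread over the 3 BMP NCSC arrays.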

How the data were processed

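Total RNA of 9 neurosphere samples was labelled as biotinylated cRNA and hybridised to Affymetrix mouse arrays. The deposited table holds the authors' log2 expression values for 45101 probe sets, processed with GCRMA (per the submitters' processing notes), with no version given in the sources used here. GCRMA corrects background by probe sequence and normalizes by quantiles, so small values are compressed and equal array distributions are imposed. Of the probe sets, 34945 had a single gene symbol, 932 had several, 64 were controls and 9160 were unlisted. Those with several symbols, including 1 shared by Ppard, were left out.

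Each gene was represented by its brightest probe set on average over 9 arrays and was tested where it reached 5 on at least 3 arrays (10319 genes). A group-means model over 9 arrays was fitted with limma 3.58.1 (R 4.3.3), with Benjamini-Hochberg adjustment over all genes tested, calling adjusted p under 0.05 with a difference of at least 1. All probe sets with 1 symbol were also fitted. The fit was tested on simulated data. The number of arrays limits the precision.

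The receptors and gene lists were chosen with earlier results of these data known. Every tested receptor was named with its values, the others by range, and of each list up to 3 called genes with the smallest p per direction and comparison. Upstream sequences came from RefSeq (GRCm38.p6). Alternatives varied the filter, the probe set rule, array weights, normalization, thresholds and arrays. Marker means are over the markers that had a probe set.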

Additional observations from a re-analysis of the deposited data

How the results depend on the processing

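For BMP NCSC minus rNCSC, the count of 8 receptors higher became 5 when the probe sets of each gene were averaged, which left 14 receptors tested, took Nr3c1 (0.98) and Rxra (0.90) under the size limit and took Nr2c1 under the filter. Over all genes, 1889 of 9346 were then called higher and 1784 lower, against 2335 and 2197 of 10319. The count of 3 receptors lower became 5 when every probe set was tested, by the added calls of Esrra and Nr2c2. It became 2, with Esrrb lost to the filter, both with averaged probe sets and at a filter of 6, which also lost Vdr (7 higher). At the filter of 6, 2047 of all 9197 genes tested were higher and 2024 lower. With no size limit, Esrra was called in both comparisons (-0.44 and -0.43), as was Rxrb against SCSC (0.38). With no filter, 37 receptors were tested, and 10 were higher and 3 lower against rNCSC (14.4% and 12.6% of all genes) and 10 and 4 against SCSC (14.5% and 14.2%). With 1 array left out, 6 to 8 receptors were higher and 3 to 3 were lower in BMP NCSC than in rNCSC and than in SCSC, and 0 to 0 were called between rNCSC and SCSC. The lowest count came when any 1 BMP NCSC array was left out, since the filter then dropped Nr3c2 and Vdr. Without BMP NCSC replicate 1, 2 and 3 in turn, 1587 of 9542, 1554 of 9536 and 1595 of 9538 genes were higher than in rNCSC. Higher than in SCSC were 1602, 1595 and 1647. The counts over all genes thus fell as well, from 2335 and 2366 of 10319. Keeping the filter of 9 arrays, an alternative chosen after seeing the data, the count stayed at 8. Over all 10319 genes, 2324, 2289 and 2336 were then higher than in rNCSC without BMP NCSC replicate 1, 2 and 3. No call of a receptor reversed in any of these alternatives.

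Deviations of same-numbered arrays from their group means correlated at 0.0424 to 0.298, not all above 0.1, so the replicate numbers were not taken as pairs, although arrays correlated best with their own number in 16 of 18 cases. With the replicate number as a block, the counts were 8 higher and 3 lower in both BMP NCSC comparisons and 0 between rNCSC and SCSC. Levels near the low end of the GCRMA scale limit the size of the differences of Nr3c2, Vdr, Rorb and Esrrb.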

Other observations

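Of the 6 retinoic acid and Nr4a receptors, which lie outside the 39 genes listed, 4 were tested. Rarg, Nr4a1, Nr4a2 and Nr4a3 were called higher in BMP NCSC against rNCSC and against SCSC, where 22.6% and 22.9% of all genes were. Their median differences were 3.42 and 3.47, while Rara and Rarb stayed under the filter. Rarg, the retinoic acid receptor of skin and cartilage, measured 6.90, 6.83 and 6.79 in BMP NCSC, against a mean of 4.32 ± 0.0581 in rNCSC and 4.13 ± 0.0987 in SCSC (SD, n = 3 each). The differences were 2.52 and 2.71 (limma, adjusted p = 2.89e-08 and 1.8e-08). Rarg entered the test through the BMP NCSC arrays alone, so its filter and its difference are not independent. The Nr4a receptors are orphan receptors encoded by immediate early genes. Nr4a1 measured 11.63, 11.27 and 10.71 in BMP NCSC, against 7.14, 7.63 and 5.86 in rNCSC, a difference of 4.33. Nr4a3 measured 9.68, 10.25 and 8.59 in BMP NCSC, against 5.15, 4.50 and 5.06 in rNCSC, a difference of 4.61. Nr4a2, a factor of dopamine neurons, was higher by 2.48. None of the 4 was called between rNCSC and SCSC.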
